A study of Mus musculus with 13 samples.

Results

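The T cell attracting chemokine genes Cxcl10, Cxcl9, Cxcl11, Cxcl16 and Ccl5 were followed across 4 culture conditions. They were chosen by name, with earlier results of these data known. All 5 were present among the 13222 genes listed in the table and among the 12319 genes tested. Cxcl9, Cxcl10, Cxcl11 and Cxcl16 encode CXC chemokines, and Ccl5 encodes a CC chemokine.

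Cultures of 4T1-Thy1.1 cells, a BALB/c mouse mammary carcinoma line that carries a Thy1.1 transgene, were profiled after 48 hours. The 3 control libraries came from untreated cells, 4 libraries from cells given 200 ng/mL doxorubicin (DOX), 3 from cells given 25 ng/mL recombinant IL-17A, and 3 from cells given DOX and IL-17A at those same doses (DOX+IL-17A). DOX is an anthracycline that damages DNA, and IL-17A is a cytokine released mainly by T cells. RNA was read from its 3′ ends by QuantSeq, so a value does not scale with transcript length, and the deposited values were scaled between libraries by the trimmed mean of M values (TMM). The comparisons ask what each agent did to chemokine transcripts, and whether IL-17A altered the response to DOX.

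Chemokines are small secreted proteins that guide leukocytes along gradients through receptors of the G protein-coupled class. Cxcl9, Cxcl10 and Cxcl11 are ligands of Cxcr3, the receptor carried by activated T cells and natural killer cells, and are known as interferon-inducible genes. Cxcl16 is made as a membrane-anchored protein that binds Cxcr6 and can be shed by metalloproteases, while Ccl5 binds CC chemokine receptors and is induced through NF-kB and interferon regulatory factors.

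Libraries held 4445592 to 16930600 reads on listed genes, and 3 reads, the limit that a count of 0 allows, corresponded to 0.183 to 0.613 normalized units. These limits cover counting error only. Replicates differed by a chi-square per degree of freedom of 7.65 (DOX replicates 3 and 4) to 177. Control replicate 1 stood apart from control replicates 3 and 5 (177 and 116, against 24.8 between those), with 143 units of summed fibroblast markers against 48.2 and 50.2, and IL-17A replicate 5 from IL-17A replicates 2 and 3 (94.7 and 62.3, against 16.1). With either left out, the same number of the 5 genes, 4, was called higher with DOX. DOX replicate 1 carried the highest summed muscle markers, 230 units (7 of 7 markers listed) against 9.35 to 40.3 in the other libraries, and the highest summed red blood cell markers, 66.5 units (3 of 5 listed) against 0 to 14.4. All 6 epithelial markers were listed, while 1 of 10 T and NK cell markers (Trac) and 0 of 4 endothelial markers were. The study speaks of biological replicates in general, and no source used here states for these libraries that replicates came from separate cultures, so p-values measure only the spread between these samples.

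In the mouse genome (GRCm38, GENCODE vM21) the Cxcr3 ligands formed a cluster on the minus strand of chromosome 5, with Cxcl9 at chr5:92321347-92328079, Cxcl10 at chr5:92346638-92348889 and Cxcl11 at chr5:92359544-92365485. The cluster spanned 44139 bases, with 18558 bases between Cxcl9 and Cxcl10 and 10654 bases between Cxcl10 and Cxcl11, and no other annotated gene lay wholly within either gap. Cxcl16 (chr11:70453983-70459984) and Ccl5 (chr11:83525778-83530518) lay on the minus strand of chromosome 11. The annotation marks Cxcl11 as a polymorphic pseudogene, a gene intact in some mouse strains only. Cxcl10 and Cxcl11 overlap the plus-strand gene Art3, Cxcl11 also overlaps the processed pseudogene Gm2673, and Cxcl16 overlaps the plus-strand gene Zmynd15. Whether strand was used in counting is not given in the sources used here. Art3 itself was at 0 to 1.70 units in the 13 libraries and Zmynd15 at 0.113 to 2.94 units.

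The promoters of Cxcl10 and Cxcl9 are shown because RefSeq (GRCm38.p6) had an entry for these 2 of the 5 genes only. Interferon and NF-kB sites are known to act in such promoters. Both promoters are the 250 bases before the start on the minus strand. Capitals mark matches, on either strand, to an interferon-stimulated response element core (GAAANNGAA), an AP-1 site (TGANTCA), a gamma-activated site (TTCNNNGAA) or the NF-kB consensus.
Cxcl10 (chr5:92348890-92349139): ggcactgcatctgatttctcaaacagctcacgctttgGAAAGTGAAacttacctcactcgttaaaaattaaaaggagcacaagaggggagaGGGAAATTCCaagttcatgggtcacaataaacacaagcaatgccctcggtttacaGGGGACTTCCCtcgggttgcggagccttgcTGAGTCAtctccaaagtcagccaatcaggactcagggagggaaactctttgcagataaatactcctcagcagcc
Cxcl9 (chr5:92328080-92328329): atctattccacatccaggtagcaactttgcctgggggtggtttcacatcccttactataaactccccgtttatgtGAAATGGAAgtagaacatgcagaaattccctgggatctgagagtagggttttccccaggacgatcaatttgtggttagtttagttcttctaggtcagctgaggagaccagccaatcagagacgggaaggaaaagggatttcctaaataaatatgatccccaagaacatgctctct
In the Cxcl10 promoter the interferon-stimulated core GAAAGTGAA lay 213 to 205 bases before the start. NF-kB consensus matches followed at 159 to 150 bases and, as overlapping matches, at 104 to 94 bases, and the AP-1 match TGAGTCA lay at 74 to 68 bases. The Cxcl9 promoter held 1 match, the interferon-stimulated core GAAATGGAA at 175 to 167 bases, and neither promoter held the gamma-activated site in these letters. Among 27025 mouse promoters of that length, 7.16% held the interferon-stimulated core, 7.01% the NF-kB consensus, 6.87% the AP-1 site and 7.18% the gamma-activated site. A match is a description of letters, and binding was not measured.

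DOX raised transcripts of 4 of the 5 chemokine genes: Cxcl9, Cxcl10, Cxcl11 and Cxcl16 passed the test, and Ccl5 did not. A gene was called when limma's Benjamini-Hochberg adjusted p was under 0.05 and the fold change exceeded 2, a rule met upward by 9.15% and downward by 6.18% of all tested genes in DOX against control. Fold changes were taken on log2(value + 1), which understates changes of low genes. The median log2 fold change was 3.40 over the 5 chemokine genes and 0.09 over all tested genes.

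Cxcl10, the ligand of Cxcr3 also known as IP-10, read 4.06, 5.85 and 4.36 units in control replicates 1, 3 and 5. In DOX replicates 1 to 4 it read 83.1, 90.0, 127 and 167 units. The groups did not overlap, and the lowest DOX library stood far above the highest control. Its mean was 117 ± 38.6 units with DOX (SD, n = 4) and 4.76 ± 0.956 units in control (n = 3), a ratio of 24.5. The log2 fold change was 4.31 ± 0.44 (SE, limma, adjusted p = 2.3e-05).

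Cxcl9, also known as MIG, was near the floor in untreated cells at 0.169, 0.426 and 0.589 units, which is 13 reads over 3 libraries. With DOX it read 7.40, 7.12, 25.3 and 24.1 units, 607 reads in all. Replicates 3 and 4 were the higher pair, and all 4 DOX libraries stood above all 3 controls. The log2 fold change was 3.40 ± 0.45 (SE, limma, adjusted p = 0.00018), and it was 4.87 to 5.24 with the smaller pseudocount or with the count models.

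Cxcl11, also known as I-TAC, read 4.40, 2.13 and 2.36 units in control and 27.0, 23.4, 50.3 and 82.3 units with DOX. Here too DOX replicates 3 and 4 were the highest libraries and the groups did not overlap. The mean rose from 2.96 ± 1.25 (SD, n = 3) to 45.7 ± 27.1 units (n = 4), with a log2 fold change of 3.43 ± 0.44 (SE, limma, adjusted p = 0.00015).

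Cxcl16 was the most abundant of the 5 genes in every library. It read 100.5, 46.1 and 72.3 units in control and 249, 233, 172 and 195 units with DOX. For this gene DOX replicates 1 and 2 were the higher pair, and the groups again did not overlap. The log2 fold change was 1.58 ± 0.27 (SE, limma, adjusted p = 0.00096), a ratio of means of 2.91.

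Ccl5, also known as RANTES, was the member that did not pass the test with DOX. It read 29.1, 16.7 and 28.8 units in control and 41.7, 35.9, 27.4 and 39.5 units with DOX, so that the lowest DOX library fell inside the control range. The log2 difference was 0.55 (95% confidence interval -0.09 to 1.19, limma adjusted p = 0.20), which does not show that the level was the same.

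**Figure D1:**
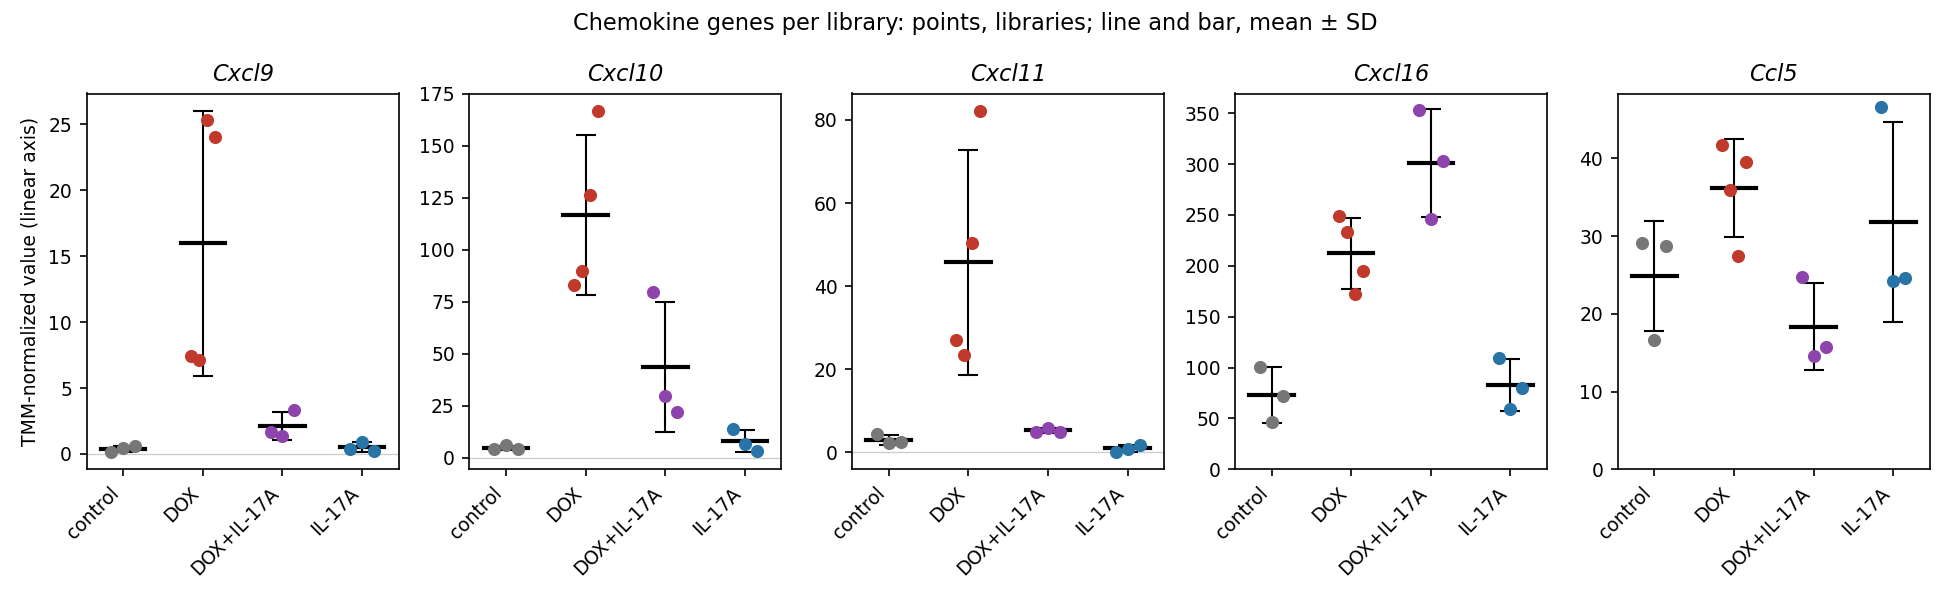
TMM-normalized value of each chemokine gene (vertical axes, linear, separate scale per gene) in each library, grouped by condition (horizontal axis), with points for libraries and lines and bars for mean ± SD. Cxcl9, Cxcl10 and Cxcl11 were highest in the 4 DOX libraries, Cxcl16 in the DOX and DOX+IL-17A libraries, and the Ccl5 ranges overlapped between DOX and control.

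When IL-17A was present together with DOX, the Cxcr3 ligands Cxcl9 and Cxcl11 were lower than with DOX alone, and Cxcl10, Cxcl16 and Ccl5 did not pass the test. Against DOX alone, limma called Cxcl9 and Cxcl11 lower and 0 of the 5 genes higher. There 4 of the 5 had an unadjusted p under 0.05, as did 782 of all 12319 tested genes. Over all tested genes 0.325% were called lower and 0.114% higher. The other tools also called 0 of the 5 higher. The calls for lower Cxcl9 and Cxcl11 depended on the analysis, and alternatives that ended them are given with each gene and in the account of the processing, where blocking on replicate number left neither called.

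Cxcl11 read 4.91, 5.86 and 4.87 units in DOX+IL-17A replicates 2, 3 and 5, against 23.4 to 82.3 units with DOX alone. The 3 DOX+IL-17A libraries lay close together, below every DOX library. The log2 difference from DOX alone was -2.74 ± 0.44 (SE, limma, adjusted p = 0.011). The adjusted p was 0.23 with a pseudocount of 0.1. It was 0.050 to 0.080, above the threshold, without DOX replicate 3 or 4 or without DOX+IL-17A replicate 2, 3 or 5, and the log2 difference in those fits was -2.81 to -2.40.

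Cxcl9 read 1.64, 1.39 and 3.37 units in DOX+IL-17A, against 7.12 to 25.3 units with DOX alone, again with no overlap. The log2 difference was -2.27 ± 0.45 (SE, limma, adjusted p = 0.041). The adjusted p was 0.077 by edgeR, 0.24 by voom and 0.17 with a pseudocount of 0.1. Leaving out any of 9 of the 13 libraries ended the call (control replicate 5, DOX replicates 3 and 4, and each DOX+IL-17A and IL-17A library), with an adjusted p of 0.050 to 0.23 and a log2 difference of -2.54 to -1.99.

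Cxcl10 read 79.5, 29.5 and 22.0 units in DOX+IL-17A, where replicate 2 stood just under the lowest DOX library at 83.1 units. The groups did not overlap, but the log2 difference of -1.56 ± 0.44 did not pass (limma adjusted p = 0.25, 95% confidence interval -2.50 to -0.62). Without DOX+IL-17A replicate 2 the difference was the most negative of the leave-one-out fits, -2.09, and still did not pass.

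Ccl5 read 24.7, 14.6 and 15.7 units in DOX+IL-17A, each below every DOX library. The log2 difference of -0.96 did not pass (95% confidence interval -1.60 to -0.32, limma adjusted p = 0.35). Cxcl16 read 353, 246 and 303 units, and these overlapped the DOX libraries. Its log2 difference from DOX alone was 0.50 (95% confidence interval -0.06 to 1.07, limma adjusted p = 0.90).

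With 4 libraries against 3, the smallest p an exact permutation test can give is 0.0571 (2-sided). Cxcl9, Cxcl10, Cxcl11 and Ccl5 each reached it in DOX+IL-17A against DOX, and Cxcl9, Cxcl10, Cxcl11 and Cxcl16 in DOX against control. A gene reaches it whenever the groups compared do not overlap. How many of all tested genes reached it was not counted. Genes not called in DOX+IL-17A against DOX, such as Psme3, reached it there too.

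Against untreated cells, DOX+IL-17A left 2 of the 5 genes called higher, Cxcl10 and Cxcl16, and none lower, where the rule was met upward by 6.95% and downward by 5.95% of all genes. Cxcl10 was 43.7 ± 31.3 units (SD, n = 3) against 4.76 units in control, a log2 fold change of 2.75 ± 0.47 (SE, limma, adjusted p = 0.0015). Cxcl16 was 301 ± 53.2 units against 72.9 units, a log2 fold change of 2.08 ± 0.28 (SE, limma, adjusted p = 0.00035). Cxcl11 did not pass (0.69, limma adjusted p = 0.34) and neither did Ccl5 (-0.41, limma adjusted p = 0.40). Cxcl9 missed the threshold with limma (1.13, adjusted p = 0.12) and passed it with DESeq2 (2.39, adjusted p = 0.014), edgeR (2.38, adjusted p = 0.037) and limma with a pseudocount of 0.1 (2.17, adjusted p = 0.049).

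IL-17A alone called 0 of the 5 chemokine genes in either direction by limma, and voom, edgeR and DESeq2 also called 0. Of all tested genes, 0.00812% were called higher and 0% lower. In IL-17A replicates 2, 3 and 5, Cxcl10 read 13.9, 6.76 and 3.28 units, overlapping the controls. Cxcl11 was the only member with an unadjusted p under 0.05 in this comparison (limma; log2 difference -1.17, 95% confidence interval -2.18 to -0.16, adjusted p = 0.96). Its values were 0, 0.786 and 1.80 units, all below the controls, and the count of 0 in replicate 2 allows up to 0.338 units. Cxcl9 at 0.338, 0.943 and 0.246 units rested on 12 reads in all. Its log2 difference from control was 0.10 (95% confidence interval -0.93 to 1.12, limma adjusted p = 0.99), so a small difference could have been missed. Cxcl16 read 109, 59.3 and 79.9 units and Ccl5 46.6, 24.2 and 24.6 units, both overlapping the controls.

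In cells that all received IL-17A, adding DOX raised 3 of the 5 genes, with 4.92% of all genes called higher and 4.92% lower. Cxcl10 was higher by 2.28 ± 0.47 on the log2 scale (SE, limma, adjusted p = 0.0067) and Cxcl16 by 1.88 ± 0.28 (adjusted p = 0.0011). Cxcl11 was higher by 1.86 ± 0.48 (limma adjusted p = 0.019), a call that was lost with voom (adjusted p = 0.12) and without DOX+IL-17A replicate 2 or 3 or IL-17A replicate 2 or 3 (adjusted p = 0.052 to 0.074). Cxcl9 did not pass with limma (1.03, adjusted p = 0.17) and passed with DESeq2 (2.21, adjusted p = 0.028), and Ccl5 had a log2 difference of -0.73 (limma adjusted p = 0.15). These comparisons share libraries with those above, so their values stand side by side and are not independent.

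Whether the effect of IL-17A differed with and without DOX was tested as a difference between those effects. By limma 0 of the 5 genes passed an adjusted p of 0.05, as did 0% of all genes. An unadjusted p under 0.05 was found for 4 of the 5 and for 556 of all 12319 tested genes. Voom, edgeR and DESeq2 also called 0 of the 5, with 2, 3 and 3 at an unadjusted p under 0.05. The differences on the log2 scale were -2.37 for Cxcl9 (adjusted p = 0.77), -2.03 for Cxcl10, -1.57 for Cxcl11 and -1.28 for Ccl5 (adjusted p = 0.90 for each), and 0.29 for Cxcl16 (adjusted p = 0.91).

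**Figure D2:**
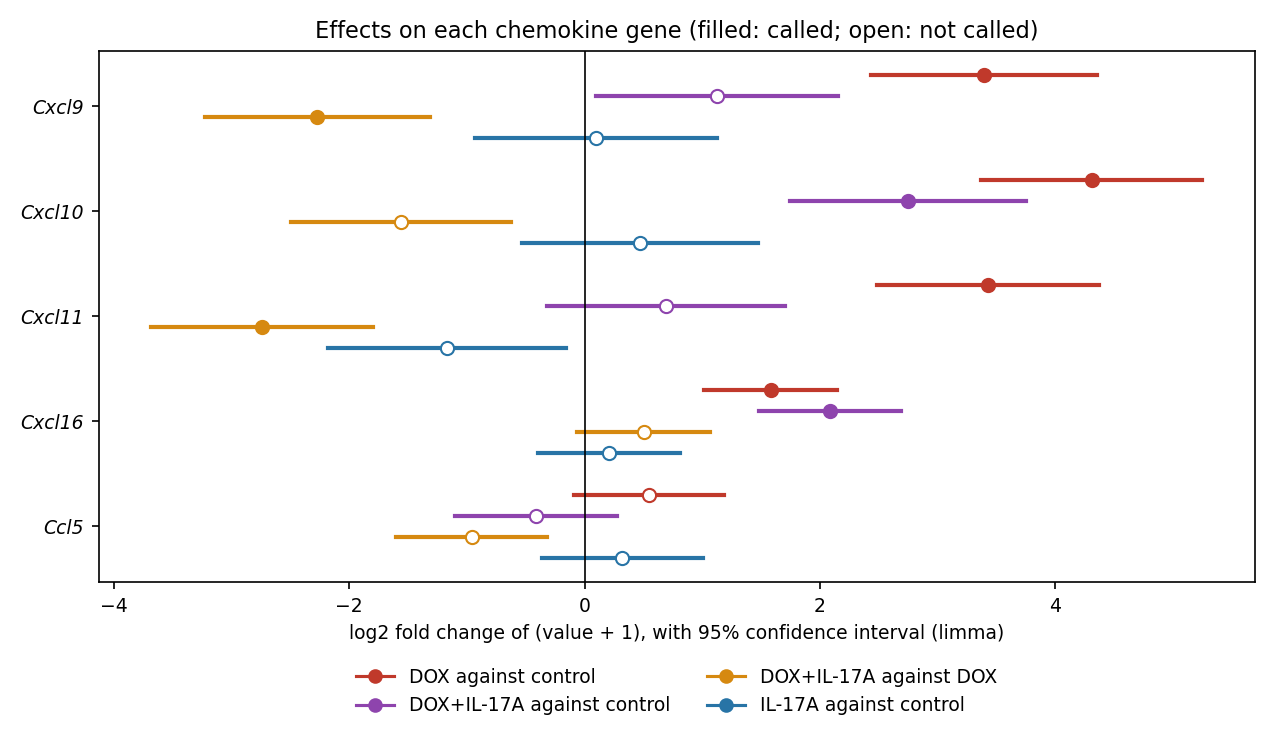
Log2 fold change of (value + 1) with its 95% confidence interval from limma (horizontal axis) for each chemokine gene (vertical axis) in 4 comparisons, filled where called and open where not. DOX against control is filled for all but Ccl5, DOX+IL-17A against DOX is filled for Cxcl9 and Cxcl11 only, and IL-17A against control is open for all 5.

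The order of the group means differed between the genes. For Cxcl10 and Cxcl9 it ran control, IL-17A, DOX+IL-17A, DOX, and the ranges of control and IL-17A overlapped for both. Cxcl11 ran IL-17A, control, DOX+IL-17A, DOX with no overlap between neighbours, though only the last step passed limma's test. Cxcl16 ran control, IL-17A, DOX, DOX+IL-17A, with overlap at the first and last steps. Ccl5 ran DOX+IL-17A, control, IL-17A, DOX, with overlap at each step.

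As a measure added after the data were seen, each gene's share of the summed signal of the 5 was computed. Cxcl16 made up 68.1% ± 4.14 of the sum in control (SD, n = 3), 50.5% ± 11.6 with DOX (n = 4), 81.9% ± 5.42 with DOX+IL-17A (n = 3) and 67.2% ± 4.84 with IL-17A (n = 3). Cxcl10 made up 5.06% ± 2.78, 27.0% ± 6.17, 11.1% ± 5.53 and 6.16% ± 2.77 in the same order. The Cxcl16 share was thus lowest with DOX and highest with DOX+IL-17A, by group mean. The log2 ratio of Cxcl10 to Cxcl16 was -4.63, -2.98 and -4.05 in control and -1.58, -1.37, -0.44 and -0.22 with DOX, with no overlap. In DOX+IL-17A it was -2.15, -3.06 and -3.78, below every DOX library, a difference in means of -2.09 (exact permutation p = 0.0571, 2-sided, the smallest it can give; adjusted p = 0.19 over the 10 ratio comparisons made). The log2 ratio of Cxcl10 to Ccl5 differed by -0.59 between the same groups, with overlap (exact permutation p = 0.29, 2-sided; adjusted p = 0.43).

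**Figure D3:**
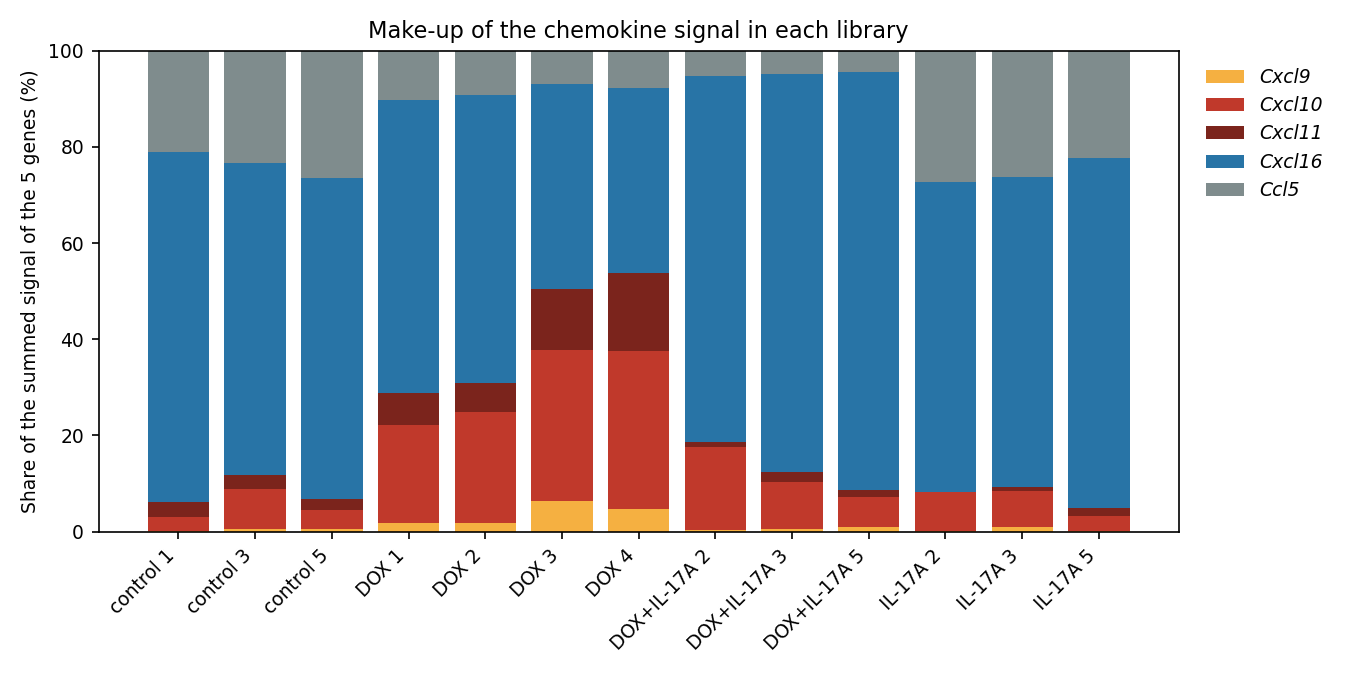
Share of the summed normalized signal of the 5 chemokine genes (vertical axis, percent) taken by each gene in each library (horizontal axis, condition and replicate number), as stacked bars. Cxcl16 takes the largest share in all 13 libraries, at 38.4% to 61.0% with DOX and 76.1% to 86.8% with DOX+IL-17A.

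On the receptor side, 2 of 9 chemokine receptor genes were listed. Cxcr3, the receptor of Cxcl9, Cxcl10 and Cxcl11, was at 6.60, 5.18 and 4.36 units in control and 0.885, 0.328, 1.68 and 0.894 units with DOX. It fell by 1.74 on the log2 scale (limma adjusted p = 0.017) and did not overlap between these groups, though 3 to 12 reads stood behind each DOX value. With DOX+IL-17A it read 1.23, 5.86 and 5.87 units and the log2 difference from DOX of 1.32 did not pass (limma adjusted p = 0.49). Ackr3, an atypical receptor that scavenges Cxcl11 and Cxcl12, did not pass in any comparison.

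Of 6 enzymes that trim or shed chemokines, 4 were listed. With DOX 2 of these 4 had a positive and 2 a negative log2 fold change, and 1 was called lower, where 6.18% of all tested genes were. This was Adam10, a metalloprotease that sheds Cxcl16 from the cell surface. It fell by 1.21 on the log2 scale (limma adjusted p = 0.0073), from 97.2 ± 28.4 to 40.9 ± 9.54 units (SD, n = 3 and 4). Adam17 did not fall, at 91.8 ± 15.7 units in control and 96.0 ± 17.7 with DOX (SD, n = 3 and 4). Mmp9 did not pass with DOX alone (1.25, limma adjusted p = 0.070) and was higher with DOX+IL-17A than in control (1.93, limma adjusted p = 0.017). Among cytokines that induce these chemokines, 3 of 7 were listed. Tnf was at 0 in all 3 controls and at 2.02 ± 0.72 units with DOX (SD, n = 4; limma adjusted p = 0.0062). Il1a rose by 1.52 with DOX (limma adjusted p = 0.041) and was higher by 2.46 with DOX+IL-17A than with DOX (adjusted p = 0.042), whereas Il1b fell by 1.21 with DOX (adjusted p = 0.019).

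Genes that carry interferon signals to the nucleus were read next. All 15 interferon signalling genes of the list were tested, and 5 were called higher and 0 lower with DOX (median log2 fold change 0.32). Among all tested genes, 9.15% were called higher and 6.18% lower with DOX. Irf7, an interferon regulatory factor, rose by 3.20 (limma adjusted p = 2.4e-05). Stat2, a transcription factor of the type I interferon response, rose by 1.83 (adjusted p = 0.00025). Irf5 rose by 2.36 (adjusted p = 0.0062). With DOX+IL-17A against DOX, 3 of the 15 fell and 0 rose (median -0.04), where 0.325% of all tested genes were called lower and 0.114% higher. Irf7 at -1.88 (adjusted p = 0.020) and Stat2 at -1.33 (adjusted p = 0.035) were among the 3. That count was 0 without DOX replicate 3 or 4 or DOX+IL-17A replicate 3 or 5, and 1 without DOX+IL-17A replicate 2 or IL-17A replicate 2 or 3, by edgeR and with a pseudocount of 0.1.

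Of 30 interferon-stimulated genes, 29 were listed. All 29 were called higher with DOX (median 2.52), where 9.15% of all tested genes were. The ubiquitin-like modifier Isg15 led them (4.52, limma adjusted p = 4.0e-06). With DOX+IL-17A against DOX 16 of the 29 were called lower and 0 higher (median -1.52, against -0.03 for all genes), with Iigp1, a GTPase, at -2.72 (adjusted p = 0.013) and Isg15 at -2.33 (adjusted p = 0.011). The count of 16 fell to 0 without DOX+IL-17A replicate 3, 2 without DOX replicate 4, 3 without DOX+IL-17A replicate 5, 5 without DOX replicate 3 and 8 without DOX+IL-17A replicate 2. In those fits the genes called lower among all tested fell from 40 to 0, 5, 6, 9 and 16, in that order, and they numbered 66 without control replicate 1. All 8 nucleic acid sensing genes were tested and 5 were called higher with DOX, where 9.15% of all tested genes were. Among the 5 were Zbp1, a sensor of left-handed nucleic acid (4.20, limma adjusted p = 1.9e-06), and Cgas, the cytosolic DNA sensor (1.43, adjusted p = 0.0012). Against DOX, 3 of the 8 were called lower with DOX+IL-17A, where 0.325% of all tested genes were, with Zbp1 at -1.70 (adjusted p = 0.020). That count was 0 without DOX replicate 3 or 4 or without DOX+IL-17A replicate 2, 3 or 5, and 1 without DOX replicate 1 or without any 1 IL-17A library. It was also 0 with a pseudocount of 0.1.

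Of the 14 NF-kB signalling genes, 3 were called higher with DOX (median 0.56), where 9.15% of all tested genes were. They were Nfkbib (1.85, limma adjusted p = 9.7e-06), Relb (1.38, adjusted p = 0.0055) and Nfkbia (1.25, adjusted p = 0.0052). Nfkbib and Nfkbia encode inhibitors of NF-kB. With DOX+IL-17A against DOX, 0 of the 14 were called by limma in either direction (median 0.00), and 1 had an unadjusted p under 0.05.

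Of the other chemokine ligands in the table, 13 were listed and 12 tested. They include attractants of neutrophils and monocytes, and also Ccl3 and Ccl4, which the paper names with Ccl5 and Cxcl9 as raising T cell infiltration. Of the 12 tested, 9 rose with DOX (5 without DOX replicate 2), where 9.15% of all tested genes were called higher. With DOX+IL-17A against DOX, 0 of the 12 were called by limma, and the median was 0.81. There 5 of the 12 had an unadjusted p under 0.05, as did 782 of all 12319 tested genes. Ccl20, the ligand of Ccr6, rose by 3.63 with DOX (limma adjusted p = 0.0031), the neutrophil attractant Cxcl1 by 2.66 (adjusted p = 0.017) and its relative Cxcl2 by 2.51 (adjusted p = 0.0038). Cxcl1 read 359, 501, 97.9 and 85.0 units in DOX replicates 1 to 4. Replicates 1 and 2 were thus the higher pair, whereas Cxcl9 and Cxcl11 were highest in replicates 3 and 4. With DOX+IL-17A Cxcl1 read 1000.4, 724 and 384 units, where Cxcl9 and Cxcl11 were low, and its difference from DOX did not pass (1.72, adjusted p = 0.68).

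**Figure D4:**
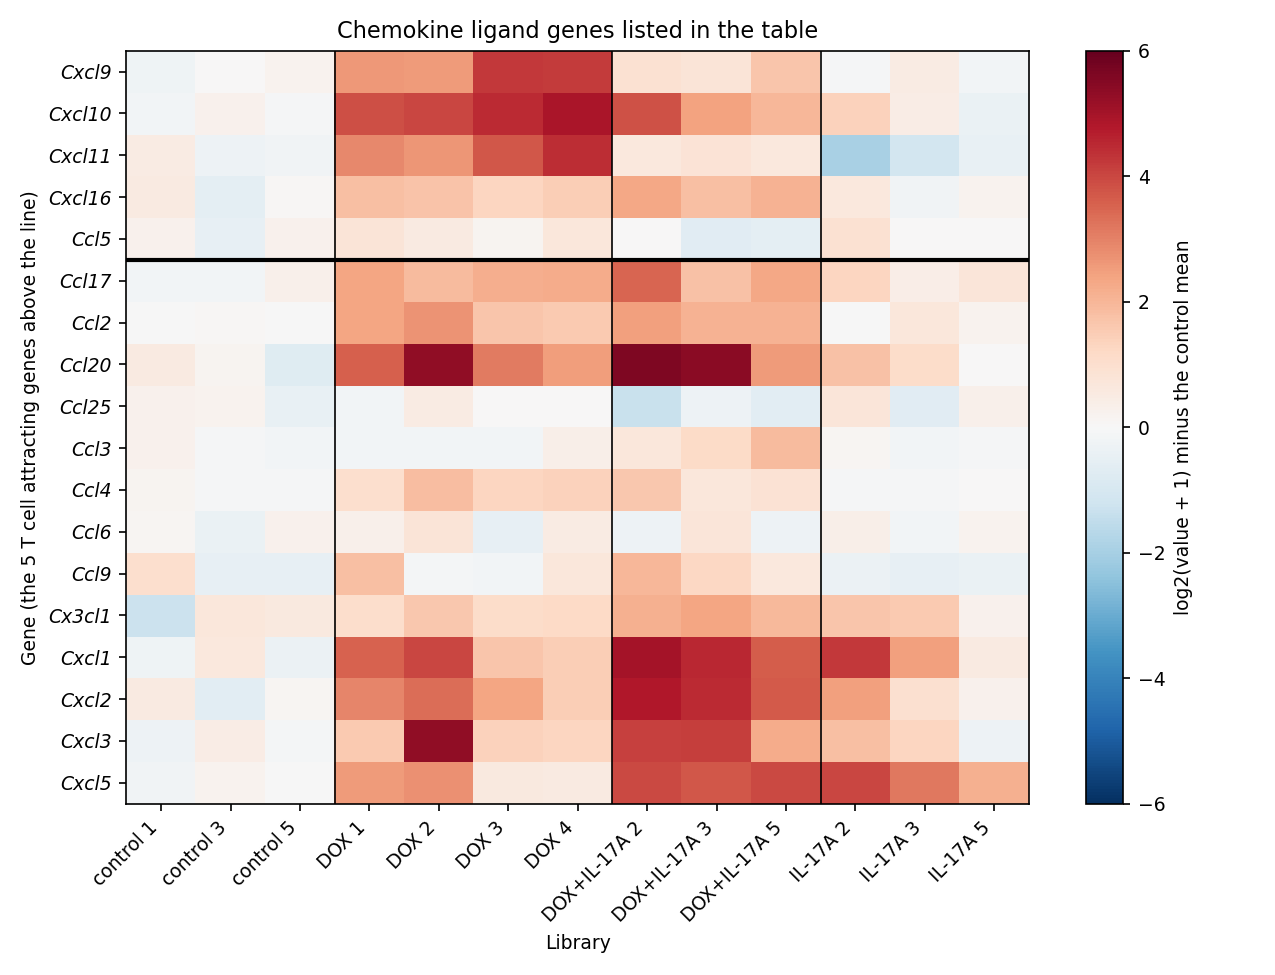
Chemokine ligand genes listed in the table (vertical axis) in each library (horizontal axis, condition and replicate number), coloured by log2(value + 1) minus the mean of the 3 control libraries. Cxcl9, Cxcl10 and Cxcl11 are reddest in DOX replicates 3 and 4, while Cxcl1, Cxcl2 and Cxcl5 are redder in DOX+IL-17A than in DOX replicates 3 and 4.

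Markers of other cell types were read beside these results. The summed level of the 6 listed myeloid markers of 10 was 20.1 to 26.4 units in control, 34.8 to 69.1 with DOX, 39.4 to 63.4 with DOX+IL-17A and 17.6 to 27.1 with IL-17A. Within DOX it was 65.4 and 69.1 units in replicates 1 and 2 and 34.8 and 38.4 in replicates 3 and 4. This was the reverse of Cxcl9, Cxcl10 and Cxcl11. Cxcl16 ran the same way as the myeloid sum, with 249 and 233 units in replicates 1 and 2 and 172 and 195 in replicates 3 and 4. Ccl5 did not split by these pairs. Of the 4 myeloid markers tested, Cd68 (2.01, limma adjusted p = 0.016) and Cd14 (1.80, adjusted p = 0.010) rose with DOX, where 9.15% of all tested genes were called higher. Neither overlapped control, which was not counted over all tested genes. Against DOX, the DOX+IL-17A values of single myeloid markers lay in different directions: Cd14 was 33.3 units on average against 13.5, Cd68 6.45 against 12.9 and Csf1r 7.15 against 22.8, and none of these differences passed (limma adjusted p = 0.44, 0.97 and 0.18). Ptprc, the pan-leukocyte marker, read 2.45 to 3.57 units in the 3 DOX+IL-17A libraries, above every other library (0 to 1.52 units), and was called higher there than in control (1.33, limma adjusted p = 0.022) but not than with DOX (0.95, adjusted p = 0.52). Csf1r was 4.93 units with IL-17A against 15.7 in control, with no overlap (limma adjusted p = 0.96). Of the 6 epithelial markers, Epcam fell by 1.50 with DOX (limma adjusted p = 0.00039), while Krt14 was 81.9 units with DOX against 41.1 in control, with no overlap and below the fold threshold (0.90, adjusted p = 0.045). The 6 epithelial markers summed to 1748 to 2168 units in control, 981 to 1043 with DOX, 825 to 1090 with DOX+IL-17A and 1472 to 1821 with IL-17A. The part of these genes in the chemokine differences was not tested. Without DOX replicate 1, the library with the muscle and red blood cell markers, 4 of the 5 chemokine genes were still called higher with DOX and 2 lower with DOX+IL-17A against DOX. In bulk RNA, more expressing cells and more RNA per cell cannot be told apart.

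The genes most like each chemokine gene across the 13 libraries, among 6159 tested genes above the median level, were ranked by Pearson's correlation of log2(value + 1). Those for Cxcl10 were the guanylate-binding protein genes Gbp10 (0.985) and Gbp6 (0.984), Isg15 (0.982), Xaf1 (0.982) and the stress factor Atf3 (0.968). Cxcl9 was nearest to Gbp7 (0.989), Usp18, Trim30a, Oasl2 and Slfn8 (0.967). Cxcl11 was nearest to Parp14 (0.976), Ddx58, Stat2, Usp18 and Ifih1 (0.957). For Cxcl16 the list held no interferon-stimulated gene of the 30 and began with Atp6v0c (0.975), a subunit of the vacuolar proton pump, followed by Atp6v0c-ps2, a copy of it whose reads may be shared, then Phgdh, Psme3 and Tmem199 (0.958). Ccl5 had no close partner, with Dnajb4 the nearest at 0.773 and Agtrap the fifth at 0.642. These libraries span 4 conditions and differ in depth, so the correlations include differences between the conditions and are a description.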

How the data were processed

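Total RNA of 13 libraries was prepared with the QuantSeq 3′ mRNA-Seq FWD kit and sequenced as single 75 base reads. Per the study's methods, reads were checked (FastQC), mapped to mm10 (STAR) and counted (featureCounts), and the submitters' processing notes also name Trimmomatic. The deposited table holds TMM-normalized signal, no raw counts. Whole reads were recovered from the steps of the deposited values (100% whole within 0.1 of a read). In DOX+IL-17A replicate 3 a read equals 0.0993 units, near a decimal step, so its recovery could not be checked independently. 1 identical second entry was dropped.

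The 5 genes and the lists were chosen with earlier results of these data known. limma 3.58.1 (trend) was fitted to log2(value + 1), all 13 libraries, condition only, on the 12319 genes kept by edgeR's filterByExpr, with Benjamini-Hochberg adjustment. Genes were called at a fold change over 2 with an adjusted p below 0.05 (interaction: adjusted p alone). Alternatives used recovered reads (voom, edgeR 4.0.16 quasi-likelihood, DESeq2 1.42.0), library size scaling, other filters, a pseudocount of 0.1, only the groups compared, a replicate block and leaving out each library. Beyond the 5 genes, the text named up to 3 other chemokine ligands and up to 4 genes per list with the largest change among those called, all listed receptors, and the 5 most correlated genes per chemokine gene. Ptprc, Mmp9 and Cxcl5 were named after their values were seen. Some genes that this rule would name are not reported here. The scripts were tested on simulated data.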

Additional observations from a re-analysis of the deposited data

Results flagged for a closer look

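Among the 18 chemokine genes examined over the 4 DOX libraries, 2 had a library far from the other 3 by Dixon's criterion. Chance flags about 1 in 20 where values are normally distributed, which was not checked here. Cxcl3 read 48.3 units in DOX replicate 2 and 2.06 to 2.66 units in the other DOX libraries. Ccl3 read 0.447 units in DOX replicate 4 and 0 in the other 3, which is 5 reads. The criterion flags any gene at 0 in 3 of the 4 libraries and above 0 in the other, so no conclusion is drawn from this flag.

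Ccl5 was above the control mean in all 4 DOX libraries and below the IL-17A mean in all 3 DOX+IL-17A libraries. The ranges overlapped in both comparisons and neither passed (limma adjusted p = 0.20 and 0.15), and the IL-17A mean of 31.8 units was raised by replicate 2 at 46.6 units. The difference between the effects was -1.28 on the log2 scale and did not pass (limma, unadjusted p = 0.011, adjusted p = 0.90).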

How the results depend on the processing

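Of 909 recomputed values of the chemokine genes and their counts of calls, 863 were scored as unchanged. That total includes fits without a library of neither group compared, where the log2 fold change cannot move, so it does not measure how stable the calls were. Unchanged meant the same direction and side of the threshold, or a count that changed little. Of the rest, 25 lost a call, 4 gained one, 4 changed sign and 13 counts moved. Counts scored as unchanged still varied: chemokine genes called higher with DOX+IL-17A numbered 2 to 3 against control and 2 to 4 against IL-17A. Each of the 4 sign changes was of an uncalled value in IL-17A against control with 1 library left out, over ranges of -0.10 to 0.22 for Cxcl9 (-0.025 and -0.10 without control replicate 1 and IL-17A replicate 3) and -0.084 to 0.47 for Cxcl16 (-0.084 and -0.013 without control replicate 3 and IL-17A replicate 2). For DOX+IL-17A against DOX, Cxcl9 lost its call with voom (-2.53), edgeR (-2.86), a pseudocount of 0.1 (-2.70) and the replicate block (-2.23, adjusted p = 0.12), and Cxcl11 with that pseudocount (-2.93) and the block (-2.39, adjusted p = 0.071). With 1 library left out they ranged from -2.55 to -1.99 and from -2.99 to -2.40. The chemokine genes called lower numbered 2, against 1 with voom or edgeR, 0 with the pseudocount or the block, and 0 to 2 with 1 library left out. Cxcl9 gained a call for DOX+IL-17A against control with edgeR (2.38), DESeq2 (2.39) and the pseudocount (2.17), and against IL-17A with DESeq2 (2.21), where Cxcl11 lost its call with voom (3.47) and ranged from 1.47 to 2.21 with 1 library left out. The causes were not tested.

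The main fit did not treat the replicate numbers as pairs, and whether they mark pairs was not settled. Deviations from group means correlated by 0.159 on average over 13 same-number pairs, 8 of which exceeded 0.1. Over 50 different-number pairs the average was -0.039, and 15 exceeded 0.1. Of 12 libraries with a same-number partner, 7 correlated best with their own number. Under the replicate block the interferon-stimulated genes called lower in DOX+IL-17A against DOX went from 16 to 4, the interferon signalling genes from 3 to 0, the nucleic acid sensing genes from 3 to 1 and all genes from 40 to 8, and no other call of the 5 chemokine genes changed. With library size scaling, the all-gene median log2 change in DOX against control went from 0.09 to 0.24 and the share of higher among called genes from 59.7% to 75.6%, with the same 4 chemokine genes called. Of the 5 genes most like Cxcl9, 1 was kept by Spearman's correlation and 4 with a pseudocount of 0.1. For Cxcl10 these were 2 and 4, for Cxcl11 3 and 3, for Cxcl16 3 and 5, and for Ccl5 2 and 5. Depth limited Cxcl9 in cells without DOX, at 1 to 7 reads a library. Cxcl9 was not tested for IL-17A against control in the fit of only those groups.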
